A study of Mus musculus with 4 samples.

Results

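The genes described here mark the contractile wall of blood vessels and the pericytes that wrap capillaries, apart from the actins themselves. The list names 10 genes: Tagln, Myh11, Cnn1, Smtn, Mylk, Lmod1, Tpm2, Pdgfrb, Rgs5 and Notch3. A probe set belonged to the group when it was annotated to exactly 1 gene whose symbol or synonym was on that list. This gave 11 probe sets for 9 of the 10 genes, out of 10855 probe sets annotated to a single gene (8252 genes). Lmod1, which encodes leiomodin 1, a protein that starts actin filaments in smooth muscle, was matched by no probe set and was not analysed here.

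The tissue was ventricle from mice at baseline. There were 2 samples from ERRα knockout mice (gene Esrra) and 2 from ERRα wild-type mice, each on its own one-colour Affymetrix array. The knockout allele, strain, age and sex were not given in the sources used here, nor whether the numbered samples were separate animals, so the p-values cover only the variation seen among these 4 samples, and part or all of it may be technical. ERRα is an orphan nuclear receptor best known for driving mitochondrial energy genes in heart muscle, and the comparison asked which transcripts differ in unstressed hearts without it.

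Smooth muscle cells contract when calcium activates myosin light chain kinase, which phosphorylates the myosin light chain and lets smooth muscle myosin pull on actin. Tropomyosin, calponin, transgelin and smoothelin bind the actin filaments. Many of these genes are switched on by serum response factor and its partner myocardin at a promoter element called the CArG box. In small vessels, the PDGF receptor β and Notch3 on mural cells receive signals from the endothelium, and Rgs5 is a common marker of pericytes.

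Each value is a scaled linear signal per probe set. The targeted gene separated the groups: its probe sets gave 83.6 and 55.2 in knockout ventricles against 2688 and 2828 in wild type, and 922 and 1050.2 in knockout against 8598 and 8038.5 in wild type. Myl2, the ventricular myosin light chain, was bright on all 4 arrays, between 154809 and 205416. Spearman correlations between arrays ran from 0.927 to 0.941 across probe sets, which are not independent replicates. The 5' to 3' signal ratio of the β-actin control probes was 0.694 and 0.813 on the knockout arrays and 0.966 and 0.909 on the wild-type arrays. That of the Gapdh control probes was 0.994 and 0.968 on the knockout arrays and 1.039 and 1.015 on the wild-type arrays. Both ratios were lower on the knockout arrays without overlap. The part of this in the genotype differences was not tested. In a whole-tissue sample, fewer cells of a type and less RNA per cell cannot be told apart.

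The smooth muscle and pericyte genes did not pass the test in either direction. Of the 9 probe sets bright enough to test, 0 passed at an adjusted p of 0.05 with limma, and 0 had an unadjusted p below 0.05. Among all 7453 probe sets tested, 1 passed (0.0134%), and 506 had an unadjusted p below 0.05. That 1 was the dimmer Esrra probe set (limma adjusted p = 0.0441), while the brighter, at a log2 difference of -3.08, missed the threshold (limma adjusted p = 0.179). With 2 arrays per genotype, a count of 0 in this test therefore says little about the 9 probe sets. The knockout and wild-type arrays overlapped for each of the 9 probe sets, while the groups stood apart for 37.4% of all probe sets tested, 20.7% with knockout higher and 16.7% with knockout lower. A separation of at least 1.5-fold was seen for 11.0% of all. Because it required no overlap, it could be seen for 0 of the 9. Log2 differences, knockout minus wild type, ran from -0.40 to 0.17 with a median of -0.02, beside a median of 0.03 over all probe sets tested.

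**Figure D1:**
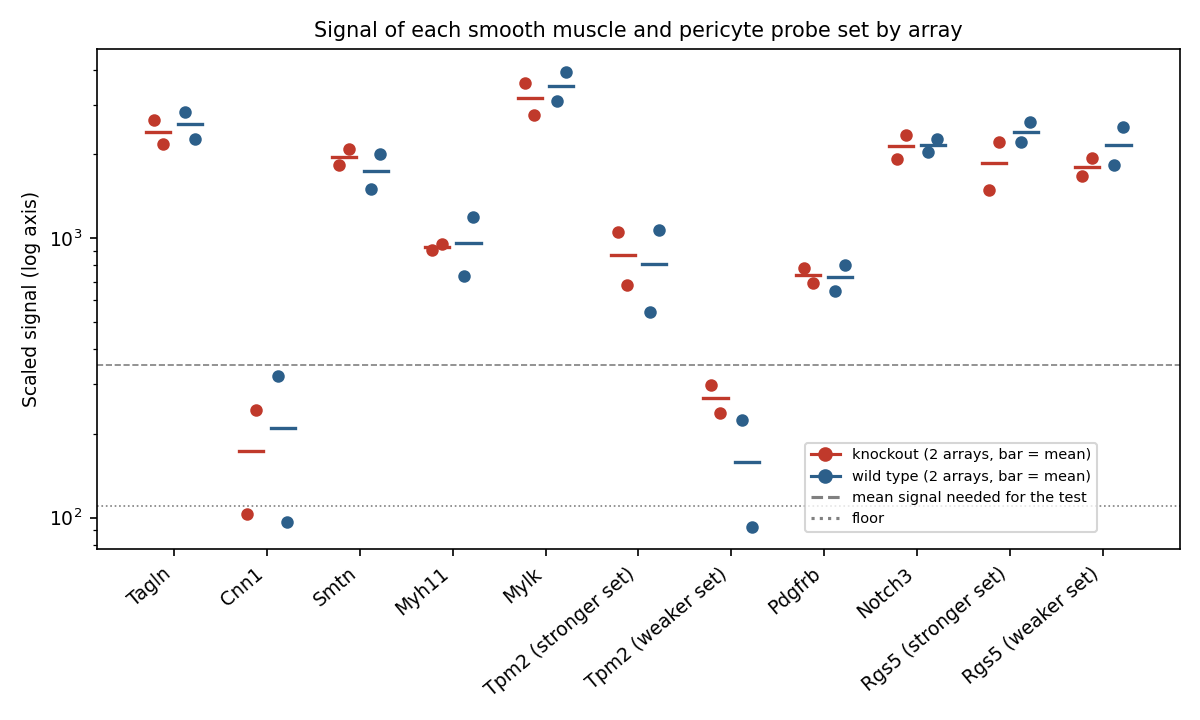
Scaled signal (log axis) of the 11 probe sets in each of the 2 knockout arrays (left, red) and the 2 wild-type arrays (right, blue), with bars for group means. The dashed line is the mean signal of 350.6 needed for the test and the dotted line the floor of 110; only Cnn1 and the weaker Tpm2 probe set lie below the dashed line, and the groups overlap for the other 9.

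The proteins that bind the actin filament came first in the contractile part of the list. Tagln, transgelin or SM22α, is among the most abundant actin-binding proteins of smooth muscle. It gave signals of 2649 and 2182 in knockout ventricles against 2846 and 2277 in wild type. In each genotype replicate 1 was the higher array, and the knockout pair lay within or just below the wild-type range (log2 -0.08, SE 0.24, limma adjusted p = 0.949). Smtn, smoothelin, a cytoskeletal protein of contractile smooth muscle cells, gave 1832 and 2086.5 in knockout against 1498 and 2005 in wild type. Wild-type replicate 1 was the low array, and the other 3 were close together (log2 0.17, SE 0.25, limma adjusted p = 0.912). Cnn1, calponin 1, which restrains the myosin motor, gave 103 and 243 in knockout against 321 and 96.2 in wild type. Each genotype had 1 array below the floor of 110, and the replicates lay further apart than the group means. The mean of Cnn1 was too low for the test, so these arrays say little about calponin in either genotype.

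Tpm2, β-tropomyosin, lies along the actin filament in smooth and slow skeletal muscle, and 2 probe sets read it. The stronger gave 1057 and 683 in knockout ventricles against 546 and 1073 in wild type. Knockout replicate 1 and wild-type replicate 2 were high and the other 2 arrays low, which gave the widest error of the group (log2 0.15, SE 0.43, limma adjusted p = 0.949). The weaker probe set, too dim for the test, gave 298 and 236 in knockout against 224 and 92.7 in wild type. Its knockout arrays were both above its wild-type arrays, the only such separation among the 11 probe sets, with 1 wild-type array below the floor. The probe sets of Tpm2 therefore disagreed about which arrays were high.

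The motor and its activating kinase were close in mean between genotypes. Myh11, the smooth muscle myosin heavy chain and the most specific marker of the lineage on the list, gave 906 and 957 in knockout against 732 and 1192 in wild type. The knockout arrays sat between the wild-type arrays (log2 -0.00442, SE 0.30, limma adjusted p = 0.997). Mylk, the myosin light chain kinase, gave 3598 and 2776 in knockout against 3109 and 3948 in wild type. The lowest and the highest array came from different genotypes and the ranges crossed (log2 -0.15, SE 0.26, limma adjusted p = 0.923).

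The receptors of mural cells showed the smallest errors. Pdgfrb, the receptor through which endothelial PDGF-B recruits pericytes, gave 783 and 690.4 in knockout ventricles against 647 and 804 in wild type. Its wild-type arrays enclosed its knockout arrays (log2 0.03, SE 0.23, limma adjusted p = 0.982). Notch3, the Notch receptor of arterial smooth muscle and pericytes, gave 1929 and 2344 in knockout against 2041 and 2268 in wild type. Here the knockout arrays enclosed the wild-type arrays (log2 -0.02, SE 0.22, limma adjusted p = 0.989).

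Rgs5, which speeds the shut-off of G protein signals and marks pericytes, had the most negative difference of the group on both of its probe sets. The stronger gave 1491 and 2222 in knockout ventricles against 2211 and 2618 in wild type. Knockout replicate 1 was low, while knockout replicate 2 lay just above wild-type replicate 1 (log2 -0.40, SE 0.28, limma adjusted p = 0.829). The weaker gave 1677.5 and 1941 in knockout against 1834 and 2501 in wild type. The 4 arrays stood in the same order as on the stronger probe set (log2 -0.25, SE 0.25, limma adjusted p = 0.865). Without knockout replicate 1 the stronger probe set had a log2 difference of -0.11, and without wild-type replicate 2 the weaker had -0.0239. Both probe sets read the same RNA extracts, so their likeness adds no replicate.

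A p that misses the threshold does not show that the genotypes had equal levels, so the intervals matter. The 95% intervals from limma ran from -1.15 at the lowest bound (stronger Rgs5 probe set) to 1.29 at the highest (Tpm2). For 7 of the 9 probe sets the whole interval lay within a 2-fold change in either direction. For Notch3 it ran from -0.60 to 0.57, for Pdgfrb from -0.57 to 0.63, for Tagln from -0.72 to 0.55, and for Myh11 from -0.81 to 0.80. These bounds are not the limit of what the adjusted test can call, which is far coarser: the brighter Esrra probe set, at -3.08, did not pass.

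**Figure D2:**
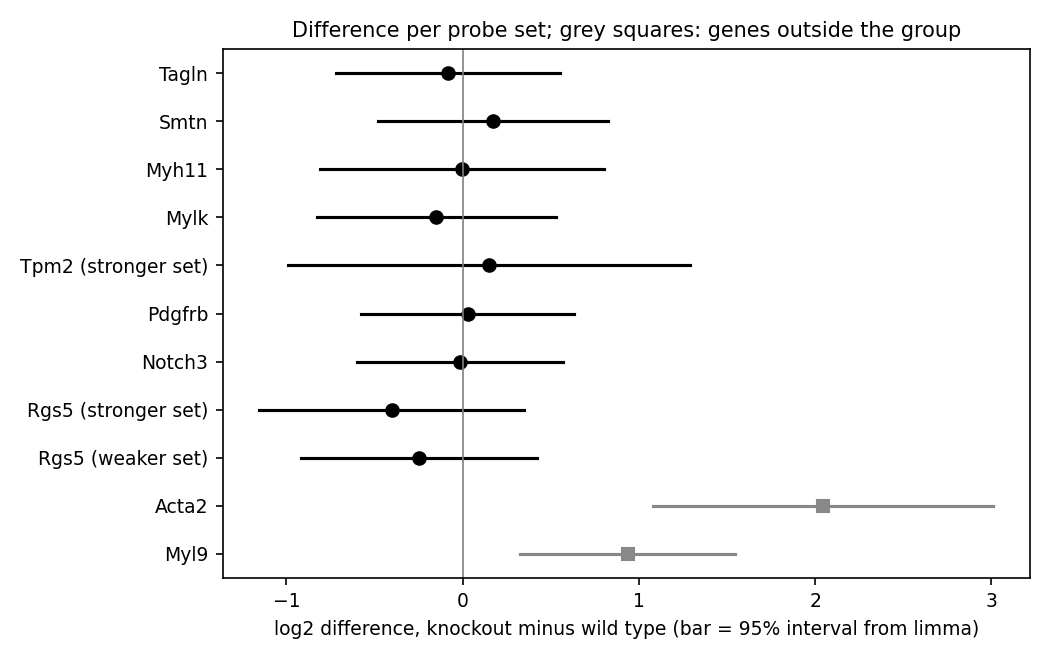
Log2 difference, knockout minus wild type, of the 9 tested probe sets (black points) and of Acta2 and Myl9, which lie outside the group (grey squares), with 95% intervals from limma. Each black interval crosses 0; the Acta2 interval, 1.08 to 3.01, overlaps that of Tpm2, which reaches 1.29.

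Set against the replicate spread, the differences between genotypes were small. For 0 of the 9 probe sets did the difference of group means exceed both gaps between replicates, while 25.6% of all probe sets tested did so. That 0 was fixed by the overlap already described, since overlapping pairs cannot differ in mean by more than both gaps, so it adds no separate result. The median absolute difference between genotypes was 0.15 (log2) for the group and 0.23 over all probe sets. The median gap between the 2 knockout arrays was 0.28 for the group and 0.28 over all probe sets, and that between the 2 wild-type arrays was 0.34 and 0.28. The replicates of these genes were thus about as far apart as those of other probe sets.

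Wild-type replicate 2 was the highest array for 6 of the 9 probe sets and the lowest for none. Knockout replicate 2 was the highest for 2 and wild-type replicate 1 for 1. The matching share over all probe sets was not counted, and an array effect was not tested. The median deviation of wild-type replicate 2 from each probe set's mean was 0.25 on the log2 scale, against -0.01 over all probe sets on the same array. Knockout replicates 1 and 2 had median deviations of -0.01 and -0.02, and wild-type replicate 1 had -0.10. With knockout replicate 1 left out the median difference between genotypes was -0.11, and with knockout replicate 2 left out it was 0.04. It was -0.32 when wild-type replicate 1 was left out and 0.06 when replicate 2 was. The list's direction therefore turned on which array was left out.

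Acta2, the smooth muscle α-actin, gave 18753 and 10915.5 in knockout ventricles against 4135 and 2909 in wild type, a 4.21-fold difference of means (log2 2.04, SE 0.36, 95% interval 1.08 to 3.01). It did not pass over all probe sets (limma adjusted p = 0.656). The lower knockout array lay above the higher wild-type array. The Tpm2 interval, up to 1.29, overlapped the Acta2 interval. Whether Acta2 differed from the other smooth muscle genes was not tested.

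The wider contractile and regulatory list held 31 further genes, Acta2 included, of which 18 had a testable probe set (25 in all). None passed in limma in either direction, and 2 had an unadjusted p below 0.05. In knockout 4 were at least 1.5-fold higher without overlap and 0 lower, beside 6.84% and 4.12% of all probe sets tested. The list's median was 0.13. Myl9, the regulatory light chain that Mylk phosphorylates, gave 2499.8 and 3146.5 in knockout against 1378 and 1559.6 in wild type (log2 0.94, SE 0.23, limma adjusted p = 0.694). Both knockout arrays lay above both wild-type arrays. Csrp2, a LIM protein of smooth muscle, gave 1333 and 1565 in knockout against 524 and 1089.8 in wild type (log2 0.93, SE 0.41, limma adjusted p = 0.748). Its groups also stood apart, with a wide gap inside wild type. Actg2, the γ-actin of visceral smooth muscle, gave 3940.4 and 3181 in knockout against 3526 and 3076 in wild type, on a probe set whose suffix marks possible cross-hybridization.

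Regulators of smooth muscle transcription did not pass in either direction. Of 10 listed, 5 genes had a testable probe set (6 in all), with a median of -0.07 and 0 passing in limma. Gata6, a transcription factor of vascular smooth muscle and heart, had a log2 difference of -0.26 on its brightest probe set and 0.50 on a dimmer one. The groups stood apart on both, in opposite directions. Another Gata6 probe set, too dim for the test, gave 177 and 150 in knockout against 395 and 315 in wild type. Fhl2, a cofactor of serum response factor that is abundant in cardiac muscle, gave 42293 and 60448 in knockout against 61392 and 69372 in wild type (log2 -0.37, limma adjusted p = 0.829). Mrtfa, a myocardin relative, was at 0.03. Srf and Myocd were matched by no probe set and were not analysed here.

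The ligands and other receptors of mural signalling had no member that passed. Of 17 listed, 9 genes had a testable probe set (11 in all), with a median of 0.09 and 0 passing in limma. At least 1.5-fold without overlap, 1 was higher and 1 lower, beside 6.84% and 4.12% of all probe sets tested. Pdgfb, the endothelial ligand of Pdgfrb, gave 1018 and 1115 in knockout against 1129.8 and 881 in wild type, and the groups overlapped. Pdgfra, the receptor of fibroblasts, had 1.16 on a weak probe set and 0.31 on the strongest. Notch4, a receptor of endothelium, gave 460.0 and 478 in knockout against 682 and 713 in wild type (log2 -0.57, SE 0.20, limma adjusted p = 0.694). Notch1 had -1.30 on 1 probe set and 0.04 on another. Hes1 and Hey1, which Notch receptors switch on, were at 0.02 and -0.31.

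Among other markers of pericytes and mural cells, 6 of 10 tested probe sets were lower in mean in knockout. Of 17 listed, 9 genes had a testable probe set (10 in all), with a median of -0.37 and 0 passing in limma. In knockout, 2 were at least 1.5-fold lower without overlap and 0 higher, beside 4.12% and 6.84% of all probe sets tested. An unadjusted p below 0.05 was found for 3 of the 10, against 506 of 7453 overall. Enpep, aminopeptidase A, gave 725 and 321 in knockout against 1202 and 1258 in wild type (log2 -1.35, SE 0.44, limma adjusted p = 0.694), but its stronger probe set had a log2 difference of 0.07. Art3, of the ADP-ribosyltransferase family, gave 7723 and 4805 in knockout against 11005 and 10607 in wild type (log2 -0.83, SE 0.30, limma adjusted p = 0.722). Anpep, aminopeptidase N, gave 594 and 688 in knockout against 1020.3 and 897 in wild type (log2 -0.58, SE 0.21, limma adjusted p = 0.725). Abcc9, Mcam and Aoc3, also on this list, were at 0.18, 0.13 and 0.45, while Kcnj8, Vtn and Des were at -0.46, -0.49 and -0.28. Of these, Kcnj8 and Des were lower in knockout without overlap, and the groups overlapped for the rest. The list shares Des with the contractile list and Rgs4 with the RGS list. Which cells of the ventricle gave the signals of this list was not tested.

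The other RGS genes, which act on G protein signals as Rgs5 does, had a median of 0.21 over 8 testable probe sets of 6 genes, and 0 passed in limma. Rgs16 gave 1183 and 1578 in knockout ventricles against 806 and 812 in wild type (log2 0.76, SE 0.24, limma adjusted p = 0.694). Its arrays stood apart, with the wild-type pair almost equal. Rgs10 had 0.91 on its dimmer tested probe set but 0.20 on the brighter. Rgs3 had -0.21. Over the 5 related lists together, 59 probe sets of 46 genes were tested. None passed, 7 had an unadjusted p below 0.05, and 39 were higher and 20 lower in mean. Among all 7453 probe sets tested, 506 had an unadjusted p below 0.05, and 3964 were higher and 3489 lower. Whether the related lists differed from that background was not tested.

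**Figure D3:**
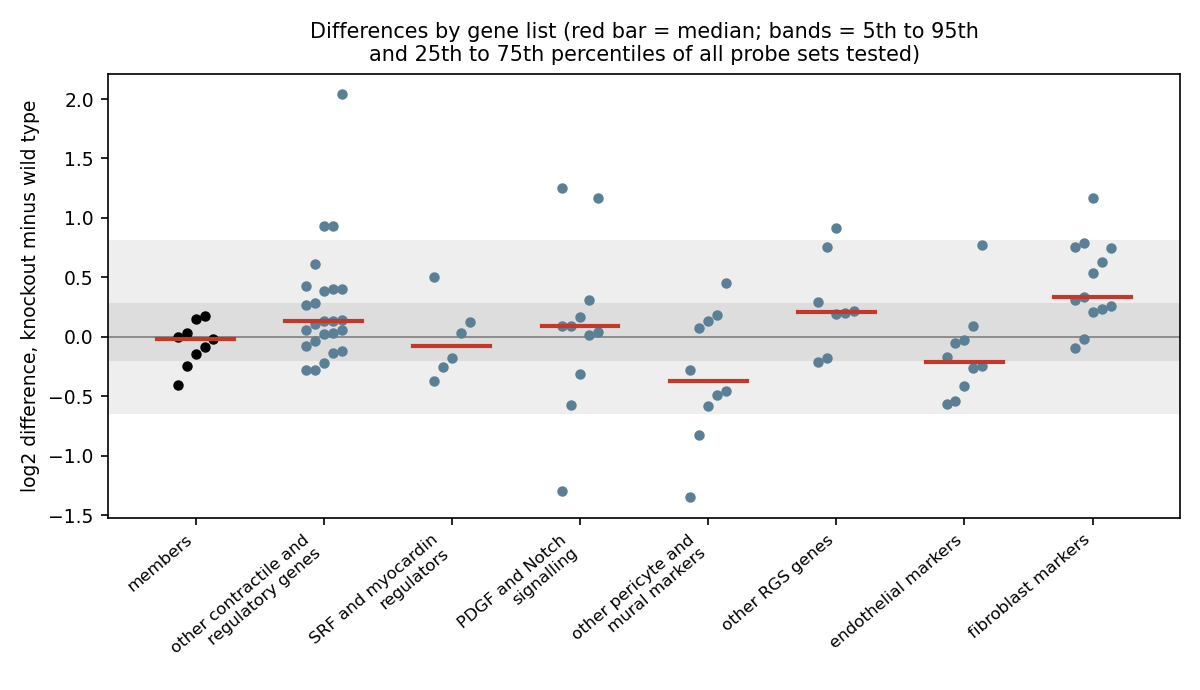
Log2 difference, knockout minus wild type, of each tested probe set by gene list, with red bars for the medians. The dark and pale bands hold the middle part of all probe sets tested (25th to 75th percentile, -0.20 to 0.28, and 5th to 95th, -0.64 to 0.80); the smooth muscle and pericyte probe sets run from -0.40 to 0.17, and the Acta2 point at 2.04 is the highest in the plot.

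Markers of neighbouring cell types give the setting for these values. None of those lists had a member that passed in limma. The summed signal of the 11 smooth muscle and pericyte probe sets was 16324 and 16362 in knockout ventricles, inside the wild-type range of 16010.1 and 18873. Endothelial markers summed to 32162 and 29225 in knockout against 39703 and 33084 in wild type. Their median log2 difference was -0.21 over 10 probe sets, with 8 lower. Tie1 was at -0.57 and -0.25 on separate probe sets, and Cdh5 at -0.54. Fibroblast markers summed to 98054 and 102134 in knockout against 72216 and 82375 in wild type. Their median was 0.33 over 13 probe sets, 11 of them higher. Col1a2 was at 0.74 on its dimmer probe set and 0.26 on the brighter, and Lum at 0.79. The list of other pericyte and mural markers summed to 27786 and 24473 in knockout against 31568 and 34704 in wild type, and the wider contractile list, Acta2 included, to 93935 and 88738 against 77573 and 79064. The endothelial and other mural sums were thus lower in knockout, and the fibroblast and wider contractile sums higher, each without overlap between genotypes. Such separation was not particular to these lists. The sums of the transcription regulators also stood apart, at 49485 and 68839 in knockout against 68975 and 77345 in wild type. So did those of the atrial, skeletal muscle and immune lists, which were higher in knockout. Among single probe sets, the groups stood apart for 37.4% of all tested. A few bright probe sets weigh heavily in such sums. In the contractile list Acta2 alone gave 18753 and 10915.5 in knockout against 4135 and 2909 in wild type. In the mural list Art3 gave 7723 and 4805 against 11005 and 10607, and Des gave 6268 and 6250 against 6990 and 8236. In the fibroblast list Dcn gave 58034 and 58177 against 42240 and 50324. In the endothelial list Eng gave 13866 and 11344 against 15941 and 12553. The sums alone therefore do not show that the rest of any of these lists differed. The sums of the 11 smooth muscle and pericyte probe sets overlapped.

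The remaining lists held atrial, skeletal muscle, adipocyte, immune and ventricular cardiomyocyte markers. Atrial markers had a median of 0.76 over 4 probe sets, with Myl4 at 1.18 and 0.58 on separate probe sets and Myl7 at 0.79. The atrial sums were 19857 and 19381 in knockout against 12545 and 10193 in wild type. Skeletal muscle markers had 0.51 over 5 probe sets, with Actn3 at 0.67 and 0.07 on separate probe sets and Mylpf at 0.51. Adipocyte markers had 0.76 over 3, with Adipoq at 1.44 and Lep at 0.76 and -0.76 on separate probe sets. Immune markers had 0.23 over 7, with Cd52 and Tyrobp at 0.30 and -0.43. Ventricular cardiomyocyte markers had -0.12 over 11, with Mb and the weaker Ckm probe set at -0.27 and 0.54. The part of any of these in the Acta2 or Myl9 values was not tested.

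Promoter sequence was available for part of the group. RefSeq windows of 250 bases before the gene start (build GRCm38.p6) were matched for 7 of the 10 listed genes: Cnn1, Lmod1, Mylk, Notch3, Rgs5, Smtn and Tpm2. A strict CArG box was found in 0 of these 7 and in 1.47% of all 32851 windows. AAGGTCA, the core half-site of estrogen-related receptors, was found in 0 of the 7 and in 4.08% of all windows. TGGGAA, the core of the site bound by the Notch effector RBPJ, was found in 1 of the 7, Smtn, and in 21.6% of all windows. All searches covered both strands, the motifs share no letters in the windows shown, and a window without a match says only that these letters are not in it.

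Smtn and Myl9 are shown because they hold the only matches of their motif among the smooth muscle genes searched, apart from a TGGGAA match in Acta2; Myl9 and Acta2 were added after their values were seen. Smtn, whose signal overlapped between genotypes, lies on the minus strand, and its window is chr11:3539293-3539542. Myl9, whose knockout arrays lay above its wild-type arrays, lies on the plus strand, and its window is chr2:156775214-156775463. Capitals mark TGGGAA read from the opposite strand in Smtn and the CArG box in Myl9.
Smtn: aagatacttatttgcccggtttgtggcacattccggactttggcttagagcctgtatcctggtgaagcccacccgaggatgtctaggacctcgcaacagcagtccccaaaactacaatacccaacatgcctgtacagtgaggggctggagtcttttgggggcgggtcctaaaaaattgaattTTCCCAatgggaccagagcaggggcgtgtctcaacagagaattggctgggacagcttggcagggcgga
Myl9: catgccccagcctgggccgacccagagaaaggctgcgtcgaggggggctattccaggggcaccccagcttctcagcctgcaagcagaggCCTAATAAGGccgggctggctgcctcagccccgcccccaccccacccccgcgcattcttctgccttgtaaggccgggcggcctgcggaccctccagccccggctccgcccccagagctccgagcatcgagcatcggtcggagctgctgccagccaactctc
The capitals lie 68 to 63 bases before the start in Smtn and 161 to 152 bases before it in Myl9. A match is a description of the letters and not evidence of binding in these hearts.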

How the data were processed

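Each deposited intensity is a linear, never negative signal of 1 probe set on 1 array per sample; the software, background correction and summary method are not given in the sources used here. The authors' scaling gave all 4 arrays nearly the same mean after the top and bottom 2% of probe sets were left out. Probe sets were named from the platform's annotation table, and 10839 of 10855 with 1 symbol matched the RefSeq gene table by gene ID; 396 with several symbols were not named. Control probe sets (66) took no part.

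Those with a mean under the 40th percentile (350.6) were left out, leaving 7453. Signals under 110, the 20th percentile of all values, were raised to it before the log2 step. The genotype difference was estimated in limma 3.58.1 (R 4.3.3; lmFit, then eBayes without trend), unpaired, with Benjamini-Hochberg adjustment over all 7453 and a threshold of 0.05. A separate count took probe sets whose group means differed at least 1.5-fold without overlap between arrays. The fit was tested on simulated data. Alternatives changed scaling, filter, floor, prior, block, probe set choice and array.

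Members, lists and tests were chosen with earlier results of these data known. The text names all members and, of each other list, the 2 or 3 probe sets with the lowest unadjusted p where none passed. Myl2, Pdgfb, Hes1, Hey1, Mrtfa, Actg2, Abcc9, Mcam, Aoc3, Kcnj8, Vtn and Des were named outside that rule, after their values were seen. Other tested probe sets of some named genes were given beside them. Precision is limited by the number of arrays.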

Additional observations from a re-analysis of the deposited data

How the results depend on the processing

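None of the smooth muscle and pericyte probe sets passed in limma under any of the 13 alternatives of the fit (lowest adjusted p 0.736 to 0.875), and none of the related lists' probe sets did (lowest adjusted p 0.194 to 0.749). The median difference was -0.06 after quantile normalization and -0.14 with arrays scaled to 1 median; this second scaling moved the median of all probe sets to -0.10, and relative to it the group lay at -0.04, against -0.05 as reported. With 1 probe set per gene the median was -0.01. Pdgfrb turned sign in both rescalings, to -0.0495 and -0.0958. The count of members at least 1.5-fold apart without overlap was 1 of 11 with no filter, where the weaker Tpm2 probe set entered. The share over all 12422 probe sets at that setting was 17.3%. Leaving out 1 array gave counts of 0 to 1, with the stronger Rgs5 probe set entering without knockout replicate 2 and Tpm2 without wild-type replicate 2; the share over all probe sets then was 18.5% to 20.1%, since 3 arrays separate more easily than 4. Leaving out 1 array gave medians of -0.32 to 0.0590, and log2 differences of -0.34 to 0.64 for Tpm2, -0.13 to 0.18 for Pdgfrb, -0.16 to 0.12 for Notch3, -0.34 to 0.0385 for Mylk, -0.24 to 0.0786 for Tagln, -0.36 to 0.35 for Myh11 and -0.0364 to 0.38 for Smtn. The Rgs5 probe sets ran from -0.69 to -0.11 (stronger) and from -0.47 to -0.0239 (weaker), while Acta2 (1.65 to 2.43) and Myl9 (0.77 to 1.10) stayed above 0. A lone array was assumed to vary like the others.

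The labels number the samples 1 and 2 in each genotype without saying that a number joins them, and the deviations of same-numbered arrays correlated at 0.01 across probe sets. With the replicate block, 0 members passed (lowest adjusted p 0.806), and the median remained at -0.02.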
